A study of Mus musculus with 4 samples.

Results

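Levels of 10 genes linked to glucocorticoid hormone and to metal binding were followed in extensively self-renewing erythroblasts of the mouse, a culture of red cell precursors that keeps dividing without maturing. The genes were the glucocorticoid receptor gene Nr3c1, 7 genes known to be induced through it (Fkbp5, Tsc22d3, Zfp36l2, Per1, Sgk1, Dusp1 and Klf9) and the metallothionein genes Mt1 and Mt2. They were chosen by name, and all 10 of the 10 were found among the 23234 genes of the authors' table. Each reached 1 FPKM (fragments per kilobase of mRNA, scaled to sequencing depth) in at least 1 library, as did 9612 genes in all.

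RNA sequencing was described for 4 samples, 1 per group. Proliferating cells with a short hairpin RNA (shRNA) against Setd8, the histone H4 lysine 20 monomethyltransferase, formed the knockdown group. Control cells with a non-targeting shRNA were either in maturation medium for 6 h, called maturing here, or proliferating. The fourth group, knockdown cells after 6 h in that medium, was not analysed here. All cells thus carried an shRNA. The labels name no strain, no number of cultures behind a sample and no components of either medium. With 1 library per group no difference had a replicate check, and every call below is that of the authors' deposited table, at a q-value of at most 0.05.

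The glucocorticoid receptor is a transcription factor held in the cytoplasm by a chaperone complex built on Hsp90. Bound to hormone, it enters the nucleus and binds response elements made of a pair of inverted hexamers, from which it raises some genes and lowers others. In red cell precursors it is known for its role in stress erythropoiesis, where it favours self-renewal over maturation. Metallothioneins are small cysteine-rich proteins that bind zinc and copper. Their genes respond to metals through the factor Mtf1 and can also respond to glucocorticoids.

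Setd8 itself stood at 9.28 FPKM in the knockdown library, 25.9 FPKM in the maturing control and 25.1 FPKM in the proliferating control, so the knockdown library held 37.0% of the level in the proliferating control. Fragment worth among very low genes put the depth of the knockdown library at 1.44 times, and that of the maturing control at 1.55 times, the depth of the proliferating control. Erythroblast markers were present in each library, over 10 entries, 2 of them shared by near-identical globin genes. In the knockdown 8 entries reached 1 FPKM, in the maturing control 10 and in the proliferating control 9. Their summed level was 681 FPKM in the knockdown, 2969 FPKM in the maturing control and 1833 FPKM in the proliferating control. Most of each sum came from the 2 globin entries. The alpha globin entry was at 265, 1747 and 843 FPKM in that order, and the beta globin entry at 280, 963 and 798 FPKM. Gata1 was higher in the knockdown than in the proliferating control, at 61.1 against 52.8 FPKM, and the other entries were all lower. Mast cell and basophil markers summed to 449.8 FPKM in the knockdown library, 33.7 FPKM in the maturing control and 54.2 FPKM in the proliferating control, over 8 genes, of which 7 reached 1 FPKM in the knockdown. Megakaryocyte markers summed to 9.93 FPKM in the knockdown, 2.98 FPKM in the maturing control and 3.14 FPKM in the proliferating control. Granulocyte and monocyte markers summed to 11.6, 5.02 and 4.77 FPKM in that order. In each of these panels 2 markers reached 1 FPKM in at least 1 library. Of the 5 lymphocyte markers and the 7 fibroblast, endothelial and hepatocyte markers, 0 reached 1 FPKM in any library. The part that these shifts in markers play in the differences below was not tested, and fewer cells of a type cannot be told apart from less RNA per cell in such bulk libraries.

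Over the 10 genes the 2 conditions gave different pictures. In the knockdown library 44.3% of the 9612 measured genes had a higher and 55.6% a lower value than in the proliferating control. Of the 10 genes 5 had a higher value and 5 a lower value. The authors' deposited table called 1 of them higher, Sgk1, and 1 lower, Dusp1. Over all 11665 genes tested in that comparison 9.05% were called, 5.81% higher and 3.24% lower, so 2 calls in 10 genes are few to set beside the background. In the maturing control 3 genes had a higher value and 7 a lower value than in the proliferating control. Among all measured genes 52.6% were higher and 47.3% lower there. By the authors' deposited table Dusp1 and Mt2 rose there, and Fkbp5 and Zfp36l2 fell. Calls were rarer over all 11298 genes tested there, at 1.75%, made up of 0.584% higher and 1.17% lower. The median log2 ratio of FPKM + 1 over the 10 genes was -0.05 for the knockdown and -0.34 for maturation, beside -0.05 and 0.01 over the 9612 measured genes. Both comparisons use the same proliferating control library, so its own deviations enter each of them.

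**Figure D1:**
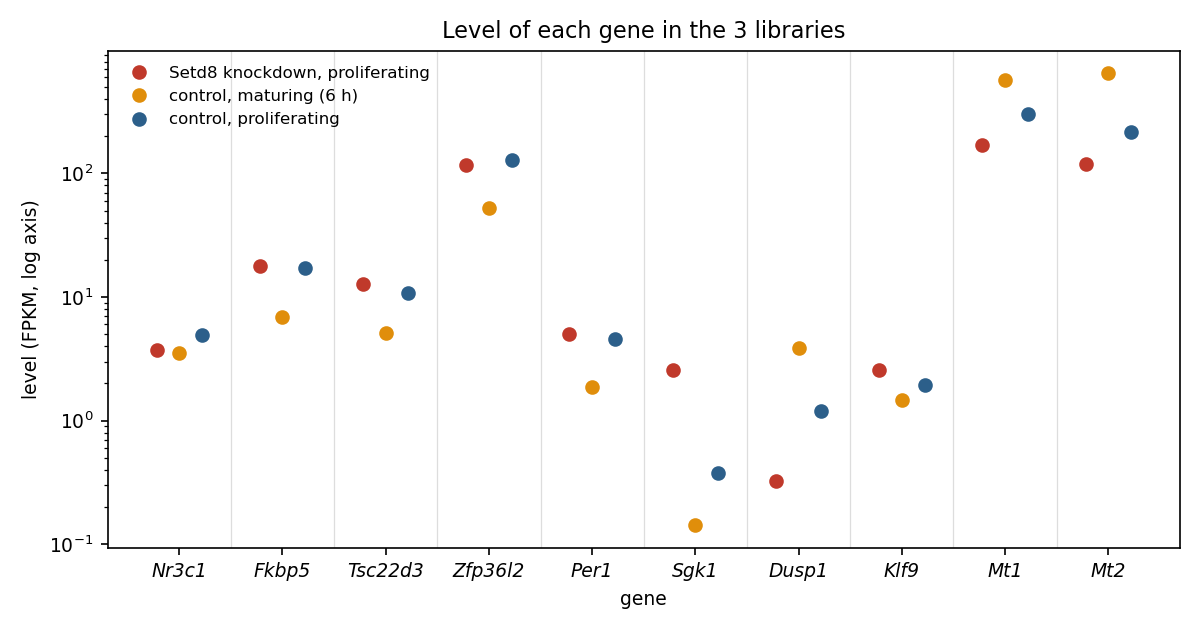
Level of each of the 10 genes in FPKM on a log axis, 1 point per library, for the Setd8 knockdown in proliferation, the maturing control and the proliferating control. Mt1 and Mt2 stand highest in the maturing control, at 573 and 644 FPKM, while Fkbp5, Tsc22d3, Zfp36l2, Per1 and Sgk1 stand lowest there.

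The receptor gene Nr3c1 (chromosome 18, 39570198 to 39646899, mm9) was expressed at a modest level. It stood at 3.73 FPKM in the knockdown, 3.51 FPKM in the maturing control and 4.97 FPKM in the proliferating control. Its highest level was thus in the proliferating control, and the other libraries held 75.0% and 70.7% of it. Neither difference was called in the authors' deposited table, where the log2 ratios were -0.41 (standard error of the authors' model 0.44) for the knockdown and -0.50 (0.44) for maturation. The related mineralocorticoid receptor gene Nr3c2, which binds the same hormones, was at 0.0309 FPKM in the knockdown, 0.0347 FPKM in the maturing control and 0.0327 FPKM in the proliferating control.

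Of 17 other genes on a list of the receptor, its chaperones and its ligand enzymes, 14 were measured. The authors' deposited table called 0 of these 14 in either comparison. Lower values were held by 12 of the 14 in the knockdown (median log2 ratio of FPKM + 1 of -0.30) and by 12 of the 14 in the maturing control (median -0.17). Over all measured genes the shares with a lower value were 55.6% in the knockdown and 47.3% in the maturing control. The Hsp90 gene Hsp90aa1 was at 209 FPKM in the knockdown, 236 FPKM in the maturing control and 273 FPKM in the proliferating control. Fkbp4, an Hsp90 partner that eases entry of the receptor into the nucleus, was at 23.4 FPKM in the knockdown, 37.7 FPKM in the maturing control and 39.6 FPKM in the proliferating control. Hsd11b2, the enzyme that inactivates cortisol and corticosterone, was below 1 FPKM in every library but was called higher in both comparisons in the authors' deposited table. It was at 0.260 FPKM in the knockdown, 0.364 FPKM in the maturing control and 0.00793 FPKM in the proliferating control. Among 14 measured receptor coregulators the authors' deposited table called only the coactivator gene Ncoa1, higher in the knockdown at 1.50 FPKM against 0.478 FPKM in the proliferating control.

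Fkbp5, Tsc22d3, Zfp36l2 and Per1 had a common pattern, with similar levels in both proliferating libraries and a lower level in the maturing control. Fkbp5 (chromosome 17, 28536039 to 28623057, mm9) encodes an Hsp90 partner that lowers the hormone affinity of the receptor, in a short feedback loop. It stood at 17.7 FPKM in the knockdown, 6.90 FPKM in the maturing control and 17.2 FPKM in the proliferating control. Maturing cells thus held 40.1% of the proliferating level, and knockdown cells 103%. In the authors' deposited table Fkbp5 fell by 1.32 on the log2 scale with maturation (standard error of the authors' model 0.42, q = 0.0286). For the knockdown its log2 ratio was 0.04 (0.40), which was not called. Zfp36l2 (chromosome 17, 84583268 to 84587287) encodes an RNA-binding protein that promotes decay of its target mRNAs and is known to be needed for self-renewal of early erythroid progenitors. Its level was 116 FPKM in the knockdown, 52.4 FPKM in the maturing control and 128 FPKM in the proliferating control. On the FPKM scale it was the most abundant of the 7 induced genes in every library. It too fell with maturation in the authors' deposited table, by 1.28 on the log2 scale (0.38, q = 0.0117), while the knockdown library kept 90.9% of the proliferating control level and was not called.

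Tsc22d3 and Per1 had differences of like size in the maturing control that the authors did not call. Tsc22d3 (chromosome X, 137074067 to 137135061) encodes GILZ, a leucine zipper protein that mediates anti-inflammatory actions of glucocorticoids. It was at 12.7 FPKM in the knockdown, 5.15 FPKM in the maturing control and 10.8 FPKM in the proliferating control. Its log2 ratio for maturation in the authors' deposited table was -1.06 with a standard error of 0.58 and a q of 0.461, the widest error of the 4 genes. Per1 (chromosome 11, 68912457 to 68923459), a repressor in the circadian clock, was at 5.07 FPKM in the knockdown, 1.88 FPKM in the maturing control and 4.56 FPKM in the proliferating control. In the authors' deposited table its log2 ratio for maturation was -1.27 (0.49), at a q of 0.113. Klf9 (chromosome 19, 23215715 to 23241401), a zinc finger transcription factor induced by glucocorticoid and thyroid hormones, varied less. Its levels were 2.56 FPKM in the knockdown, 1.46 FPKM in the maturing control and 1.94 FPKM in the proliferating control, with no call in either comparison.

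**Figure D2:**
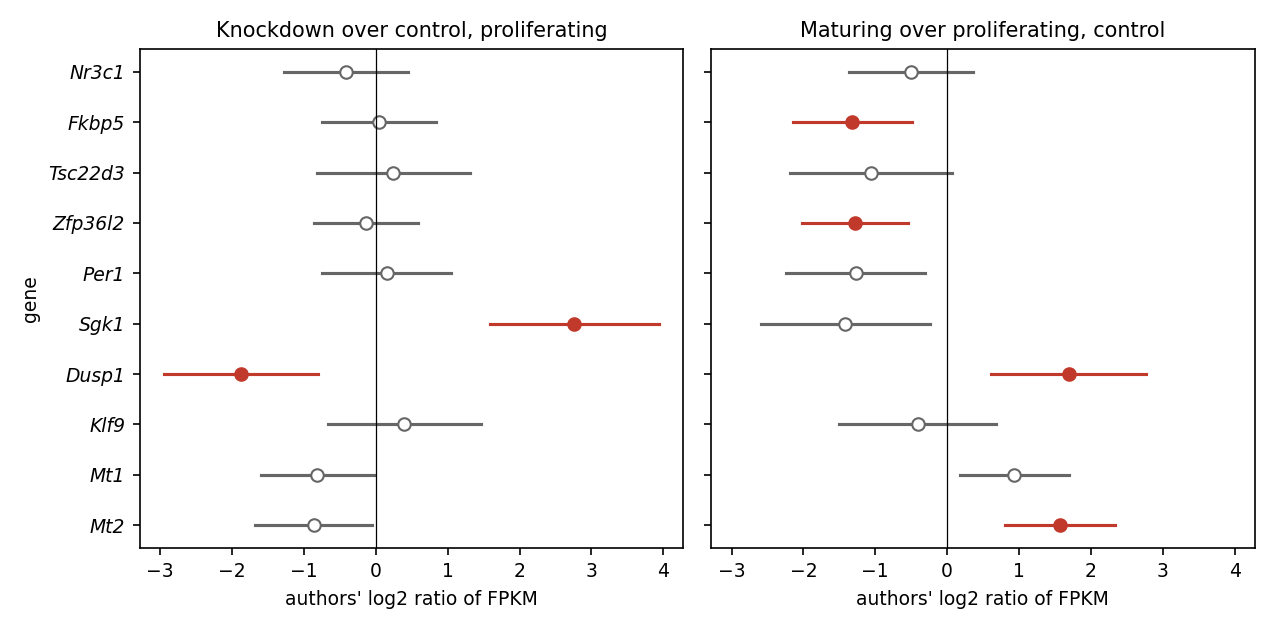
Log2 ratio of FPKM in the authors' deposited table for each gene, for knockdown over control (left) and maturing over proliferating control (right). Bars span 1.96 standard errors of the authors' model to either side, a model error and not a spread between replicates. Filled red points are the authors' calls. Sgk1 and Dusp1 are called in the left panel, and Fkbp5, Zfp36l2, Dusp1 and Mt2 in the right panel.

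Sgk1 and Dusp1 were the 2 genes called in the knockdown, in opposite directions. Sgk1 (mm9 chromosome 10, 21601989 to 21719708) encodes a kinase that acts in the PI3 kinase pathway and controls ion channels and Foxo factors. It stood at 2.58 FPKM in the knockdown, 0.143 FPKM in the maturing control and 0.381 FPKM in the proliferating control. The knockdown library alone exceeded 1 FPKM, at 6.77 times the proliferating control. In the authors' deposited table Sgk1 rose by 2.76 on the log2 scale in the knockdown (standard error of the authors' model 0.60, q = 0.000144). On the scale of FPKM + 1, which understates low genes, the log2 ratio was 1.37. The maturing control held 37.5% of the proliferating control level. The authors' deposited table left that difference uncalled, at a q of 0.185 and a log2 ratio of -1.42 (0.60). Dusp1 (chromosome 17, 26642535 to 26645417) encodes a phosphatase that inactivates MAP kinases. It was at 0.325 FPKM in the knockdown, 3.84 FPKM in the maturing control and 1.19 FPKM in the proliferating control. Its order was the reverse of that of Sgk1, with the maturing control highest and the knockdown lowest. In the authors' deposited table Dusp1 fell by 1.87 on the log2 scale in the knockdown (0.54, q = 0.0101). With maturation it rose by 1.69 in the same table (0.55, q = 0.0297). Dusp1 was therefore the only 1 of the 7 induced genes with a higher value in the maturing control, and the others held 37.5% to 75.3% of the proliferating control level. Both genes are low, so their levels rest on fewer fragments than those of Zfp36l2 or the metallothioneins, and the number of fragments is unknown.

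Of the 6 RefSeq start sites of Sgk1, 1 has an exact match to the full glucocorticoid response element in its promoter window. The window spans chr10:21993640-21993939 (GRCm38.p6, plus strand), from 250 bases before the start to 50 after it, and is shown because the letters are rare. Capitals mark AGAACA followed after 3 bases by its reverse complement.
Sgk1: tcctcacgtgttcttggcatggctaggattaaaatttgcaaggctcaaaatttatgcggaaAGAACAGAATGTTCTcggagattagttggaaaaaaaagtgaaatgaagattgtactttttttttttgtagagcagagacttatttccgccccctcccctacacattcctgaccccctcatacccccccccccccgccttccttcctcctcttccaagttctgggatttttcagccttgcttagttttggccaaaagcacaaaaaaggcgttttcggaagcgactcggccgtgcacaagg

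The full element begins 189 bases before the start, and only 3 of 32851 such windows (0.00913%) hold an exact match on either strand. No mismatch was allowed, so response elements with other letters were not counted. The hexamer AGAACA alone, 2 copies of which form the full element, was found in 19.0% of all windows. It was also in 3 places in the window shown, in 2 other Sgk1 windows and in 1 of 3 windows of Tsc22d3. The windows of Fkbp5, Klf9 and Dusp1 and both windows of Per1 did not hold it, which says only that these letters are not in those 300 bases. The deposited level of Sgk1 does not separate its start sites. Fkbp5 and Dusp1 and 1 window each of Per1 and Sgk1 held the E-box CACGTG, which clock factors can bind, as did 7.15% of all windows. Dusp1 also held the cAMP response element TGACGTCA, found in 1.79% of all windows. Nr3c1 and Zfp36l2 had no window to search.

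Mt1 and Mt2 were the most abundant of the 10 genes in every library on the FPKM scale, and both had their highest level in the maturing control and their lowest in the knockdown. Mt2 (mm9 chromosome 8, 96696517 to 96697467) had 119 FPKM in the knockdown, 644 FPKM in the maturing control and 216 FPKM in the proliferating control. It ranked 208th, 20th and 121st among the 23234 genes of those libraries in that order. In the authors' deposited table Mt2 rose by 1.57 on the log2 scale with maturation (standard error of the authors' model 0.39, q = 0.00148). Only 0.135% of measured genes had a larger log2 ratio of FPKM + 1 in that comparison. Mt1 (chromosome 8, 96702988 to 96704227) lies 5521 bases further along and was at 170.2 FPKM in the knockdown, 573 FPKM in the maturing control and 299.5 FPKM in the proliferating control. Its maturing level was 1.91 times the proliferating control, against 2.97 times for Mt2. Mt1 was not called for maturation by the authors, whose deposited table gave it a q of 0.162 and a log2 ratio of 0.94 (0.39). In the knockdown Mt1 held 56.8% and Mt2 55.0% of the proliferating control level. Neither was called, with log2 ratios in the authors' deposited table of -0.82 (0.40, q = 0.343) for Mt1 and -0.86 (0.42, q = 0.317) for Mt2.

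The balance of the pair differed between libraries. Mt2 was at 0.700 times the level of Mt1 in the knockdown, 1.12 times in the maturing control and 0.723 times in the proliferating control. Together they made up 0.170% of the summed FPKM in the knockdown, 0.686% in the maturing control and 0.293% in the proliferating control. The 2 coding sequences are similar, so fragments could be split between them and their separate levels are less certain than their sum.

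The family members beside them on chromosome 8 were not alike. Mt4, known mainly from stratified epithelia, was at 16.0 FPKM in the knockdown, 86.1 FPKM in the maturing control and 31.5 FPKM in the proliferating control, the same order of libraries as for Mt2. The authors' deposited table left it uncalled, at a q of 0.0583 for maturation and 0.521 for the knockdown. Mt3, the brain form, was listed at 0 in the knockdown and in the proliferating control and stood at 0.0232 FPKM in the maturing control. Mtf1, the metal-sensing factor, was nearly level, at 2.20 FPKM in the knockdown, 2.46 FPKM in the maturing control and 2.17 FPKM in the proliferating control. Slc30a1, the zinc exporter that Mtf1 also induces, was at 0.994 FPKM in the knockdown, 1.27 FPKM in the maturing control and 0.831 FPKM in the proliferating control. Neither comparison called it in the authors' deposited table.

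The promoter windows of the 3 expressed metallothionein genes are shown because their levels had the same order over the libraries. Each runs from 250 bases before the RefSeq gene start to 50 after it, on the plus strand of GRCm38.p6. They lie at chr8:94178839-94179138 for Mt1, chr8:94172368-94172667 for Mt2 and chr8:94136954-94137253 for Mt4. Capitals mark the core of the metal response element, TGCACNC or TGCGCNC, on either strand.
Mt1: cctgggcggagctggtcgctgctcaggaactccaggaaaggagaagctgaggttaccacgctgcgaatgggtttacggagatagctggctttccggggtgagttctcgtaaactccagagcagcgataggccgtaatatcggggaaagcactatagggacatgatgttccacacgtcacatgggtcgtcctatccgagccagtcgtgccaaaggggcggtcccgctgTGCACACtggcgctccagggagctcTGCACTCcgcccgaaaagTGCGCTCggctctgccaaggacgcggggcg
Mt2: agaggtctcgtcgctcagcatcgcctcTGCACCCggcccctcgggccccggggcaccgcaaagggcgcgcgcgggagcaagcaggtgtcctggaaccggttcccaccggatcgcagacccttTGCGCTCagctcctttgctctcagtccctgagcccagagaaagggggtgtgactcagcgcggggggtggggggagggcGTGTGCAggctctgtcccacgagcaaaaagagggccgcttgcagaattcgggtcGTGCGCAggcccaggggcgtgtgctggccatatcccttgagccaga
Mt4: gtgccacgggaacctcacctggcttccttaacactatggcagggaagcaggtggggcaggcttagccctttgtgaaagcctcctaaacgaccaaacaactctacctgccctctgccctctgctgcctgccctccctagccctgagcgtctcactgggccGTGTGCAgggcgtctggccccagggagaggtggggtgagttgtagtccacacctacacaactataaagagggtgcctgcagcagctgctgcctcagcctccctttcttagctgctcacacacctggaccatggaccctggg

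The core occurred 3 times in the window of Mt1, 4 times in that of Mt2, and once in that of Mt4. Of all 32851 windows, 1.97% held 3 or more cores, 0.517% held 4 or more, and 25.7% held at least 1. In Mt2 the first letters of the cores lay 223, 128 and 50 bases before the start, and the fourth began just after it. In Mt1 the first core began 23 bases before the start and the others lay after it. All positions count from the RefSeq start. Whether the cells used that start was not measured, and cores beyond the 300 bases were not searched. Among the other genes 1 core was found in a window of Per1, 1 in a window of Sgk1 and 1 in that of Dusp1. The hexamer AGAACA was not among the 300 bases of Mt1, Mt2 or Mt4. These matches describe letters in the windows and are not measured binding.

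**Figure D3:**
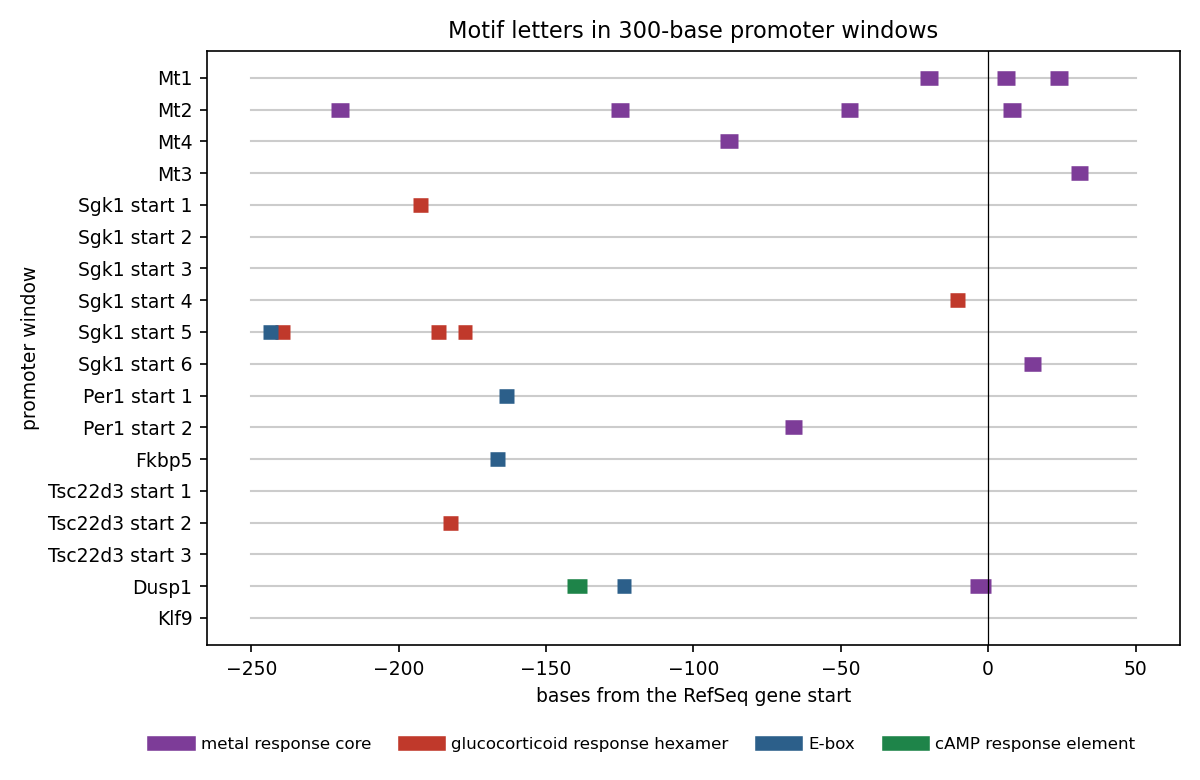
Motif letters in the promoter windows of the metallothionein genes and of the 6 other genes with a RefSeq window, by bases from the gene start. Grey lines are the 300-base windows and coloured blocks are matches on either strand. Mt1 has 3 and Mt2 has 4 metal response cores, and start 5 of Sgk1 has the pair of hexamers that begins 189 bases before the start.

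Genes of zinc and copper handling did not move as a group with the metallothioneins. Of 24 measured genes on that list besides Mt1 and Mt2, 3 were called higher and 2 lower in the knockdown in the authors' deposited table. With maturation it called 1 higher and 1 lower. The medians were 0.09 and 0.03. Slc31a2, a low-affinity copper transporter, rose to 67.6 FPKM in the knockdown, against 2.22 FPKM in the proliferating control. The zinc transporter genes Slc39a11 and Slc30a2 rose to 1.76 and 1.11 FPKM in the knockdown, against 0.0416 and 0.0555 FPKM in the proliferating control. Atp7b, a copper-exporting ATPase, fell to 1.84 FPKM in the knockdown, against 7.41 FPKM in the proliferating control. Slc30a10, known as a manganese exporter, was called in both comparisons. It was at 0.0769 FPKM in the knockdown, 1.56 FPKM in the maturing control and 0.445 FPKM in the proliferating control. Slc39a10, a zinc importer, fell to 1.70 FPKM in the maturing control, against 6.11 FPKM in the proliferating control. These changes are the calls of the authors' deposited table.

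On the list of oxidative stress genes, which metals and electrophiles induce, 12 genes were measured. In the knockdown 11 of the 12 had a lower value and the median log2 ratio of FPKM + 1 was -0.44. The authors' deposited table called 1 of them, Nqo1, which fell to 3.005 FPKM in the knockdown, against 12.2 FPKM in the proliferating control. In the maturing control Nqo1 was at 22.1 FPKM and was not called. There 8 of the 12 had a higher value, beside 52.6% of all measured genes. The median of the 12 was 0.19 and 0 of them were called in the authors' deposited table. Hmox1, the haem-degrading enzyme, was at 7.91 FPKM in the knockdown, 10.6 FPKM in the maturing control and 11.0 FPKM in the proliferating control, with no call.

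Of 32 further genes known to be induced by glucocorticoids in other tissues, 19 were measured. With maturation 13 of the 19 lay below the proliferating control, and the median was -0.34. The authors' deposited table called 2 of them lower and 0 higher. They were Ddit4, an inhibitor of mTOR signalling, at 6.36 FPKM in the maturing control against 17.3 FPKM in the proliferating control, and the secreted protein gene Crispld2, at 0.302 against 2.82 FPKM. In the knockdown 12 of the 19 lay below the proliferating control, beside 55.6% of all measured genes. The median of the 19 was -0.25, and calls went both ways in the authors' deposited table. Rgs2, a regulator of G-protein signalling, rose to 1.31 FPKM in the knockdown, against 0.0779 FPKM in the proliferating control. Crispld2 fell to 0.0642 FPKM in the knockdown. The glutamine synthetase gene Glul fell to 9.96 FPKM in the knockdown, against 27.6 FPKM in the proliferating control. The chemokine receptor gene Cxcr4 was called lower in the same table, listed at 0 in the knockdown and at 2.18 FPKM in the proliferating control. The table also called 2 genes of the list higher in the knockdown that stayed below 1 FPKM in each library, the cell cycle inhibitor gene Cdkn1c and the stress gene Gadd45b. Cdkn1c was at 0.520 FPKM in the knockdown, against 0.0980 FPKM in the proliferating control. Gadd45b was at 0.432 FPKM in the knockdown, against 0.113 FPKM in the proliferating control. With these, 3 genes of the list were called higher and 3 lower.

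**Figure D4:**
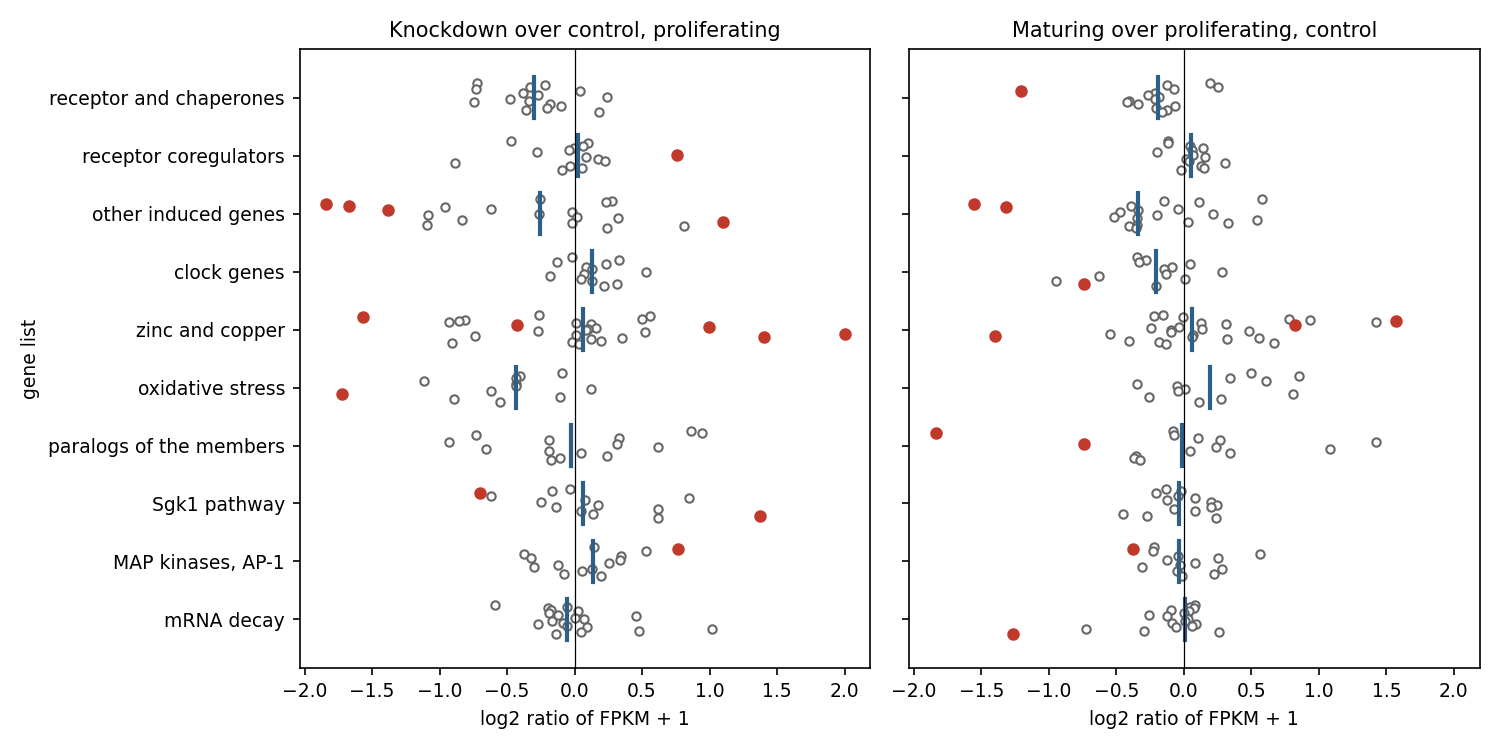
Log2 ratio of FPKM + 1 of each measured gene on 10 lists, the 10 genes included where a list holds them, for knockdown over control (left) and maturing over proliferating control (right). Filled red points are the authors' calls, blue lines the medians, and 1 gene beyond 2 on the axis, Slc31a2, is drawn at its edge. The medians of the further induced genes lie at -0.25 on the left and -0.34 on the right.

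Close relatives and partners of the 10 genes were mostly uncalled. Per2, the clock partner of Per1, fell to 0.475 FPKM in the maturing control, against 1.46 FPKM in the proliferating control, by the authors' call. It was at 2.05 FPKM in the knockdown. It was the 1 gene called among 12 other measured clock genes, 9 of which had a lower value with maturation and 9 a higher value in the knockdown. Among all measured genes 47.3% had a lower value with maturation and 44.3% a higher value in the knockdown. Per3 stayed below 1 FPKM in each library. Dusp6, a phosphatase that inactivates ERK, went the opposite way to Dusp1 with maturation. Dusp6 fell to 1.02 FPKM in the maturing control, against 6.23 FPKM in the proliferating control, by the authors' call, and was at 12.9 FPKM in the knockdown with no call. Zfp36, Zfp36l1 and Zfp36l3, RNA-binding proteins of the Zfp36l2 family, were not called. Zfp36l3 was at 24.5 FPKM in the knockdown, 22.0 FPKM in the maturing control and 27.9 FPKM in the proliferating control. Zfp36l1 was at 11.0 FPKM in the knockdown, 8.98 FPKM in the maturing control and 11.9 FPKM in the proliferating control. Tsc22d1, a relative of Tsc22d3, was at 0.429 FPKM in the knockdown, 3.76 FPKM in the maturing control and 1.25 FPKM in the proliferating control, with no call. Tsc22d4 was at 16.6, 20.6 and 16.0 FPKM in those libraries in the same order, also with no call. Klf13, a relative of Klf9, was at 9.13 FPKM in the knockdown, 7.66 FPKM in the maturing control and 7.06 FPKM in the proliferating control. Sgk3 was at 6.04 FPKM in the knockdown, 4.41 FPKM in the maturing control and 3.57 FPKM in the proliferating control, but the authors' deposited table marks its test as failed. Dusp2, a further phosphatase of the family that stayed below 1 FPKM, was called lower in the knockdown, at 0.0584 FPKM against 0.307 FPKM in the proliferating control. Of 14 measured MAP kinase and AP-1 genes Fos was called in the authors' deposited table. Fos was at 1.22 FPKM in the knockdown, where it was called higher, 0.00787 FPKM in the maturing control, where it was called lower, and 0.306 FPKM in the proliferating control. Its relative Fosb stayed below 1 FPKM and was also called higher in the knockdown, at 0.292 FPKM against 0.0153 FPKM in the proliferating control (q = 4.01e-07). Of 18 other measured genes of mRNA decay 0 were called in either comparison in the authors' deposited table.

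The knockdown library was also set directly against the maturing control in the authors' deposited table, a pair that differs in both Setd8 and medium. The rows used for this pair cover 19067 of the 23234 genes and stop, in the table's alphabetical order, at Slc2a13. They include 8 of the 10 genes, without Tsc22d3 and Zfp36l2. Of the 9241 genes tested among them 11.6% were called, 7.22% higher and 4.38% lower in the knockdown. Of the 8 genes, 2 were called higher in the knockdown, Fkbp5 and Sgk1, and 3 lower, Dusp1, Mt1 and Mt2. The log2 ratios in that table were 1.36 for Fkbp5 (q = 0.0210) and 4.18 for Sgk1 (q = 7.82e-11). They were -3.56 for Dusp1 (q = 6.53e-09), -1.75 for Mt1 (q = 0.000283) and -2.44 for Mt2 (q = 9.62e-08). Per1 was not called, at a q of 0.0546 and a log2 ratio of 1.43, and Nr3c1 and Klf9 were not called. This comparison shares its libraries with the other 2 and is no separate evidence.

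For each of the 5 genes called in the knockdown or with maturation, the 3 genes with the nearest pair of log2 ratios of FPKM + 1 were taken from 5131 genes at 5 FPKM or more in at least 1 library. The pairs rest on 3 libraries. Nearest to Mt2 were the Rh blood group gene Rhd (distance 0.10), Mt4 (0.16) and the coactivator gene Cited4 (0.25). Rhd was at 7.84 FPKM in the knockdown, 41.9 FPKM in the maturing control and 14.4 FPKM in the proliferating control. Near Fkbp5 were the Src-family kinase gene Lyn (0.10) and the presenilin gene Psen2 (0.12). Lyn was at 10.5 FPKM in the knockdown, 3.94 FPKM in the maturing control and 10.9 FPKM in the proliferating control. Near Zfp36l2 were Arhgef3 (0.04) and again Lyn (0.10). Dusp1 lay nearest to Stom, the red cell membrane protein stomatin (0.06), and to the similar genes Selenbp2 and Selenbp1 (0.13 and 0.14), whose fragments can be shared. Stom was at 5.07 FPKM in the knockdown, 21.5 FPKM in the maturing control and 9.38 FPKM in the proliferating control. For Sgk1 the nearest were Plp2 (0.08), Galk1 (0.13) and Ng23 (0.14). Plp2 was at 15.4 FPKM in the knockdown, 3.91 FPKM in the maturing control and 4.98 FPKM in the proliferating control. Sgk1 was at 2.58, 0.143 and 0.381 FPKM in that order, and Dusp1 at 0.325, 3.84 and 1.19 FPKM. Adding 1 to each level shrinks the ratios of such low genes more than those of their nearest genes. The distances for Sgk1 and Dusp1 therefore do not show that ratios of FPKM itself were alike.

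**Figure D5:**
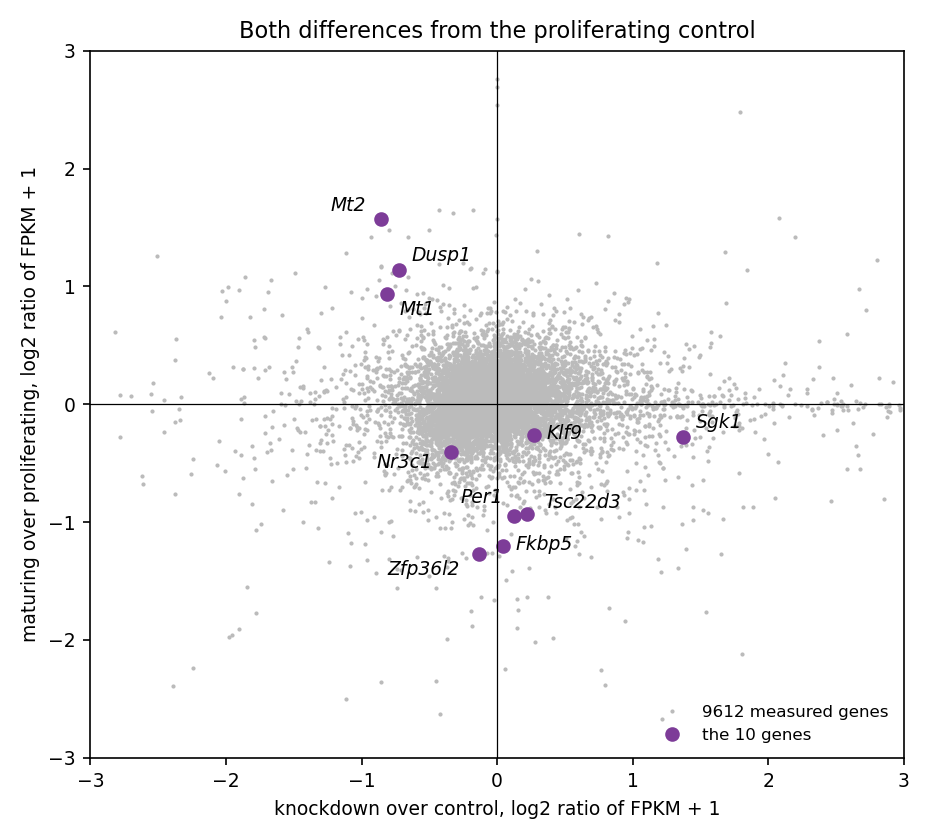
Log2 ratio of FPKM + 1 for knockdown over control (x axis) and maturing over proliferating control (y axis), with 9612 measured genes in grey, 66 of them outside the axes, and the 10 genes in purple. Mt2, Mt1 and Dusp1 lie at upper left, and Fkbp5, Zfp36l2, Tsc22d3 and Per1 lie low and near 0 on the x axis. Both axes share the proliferating control library.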

How the data were processed

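RNA of mouse erythroblasts was sequenced in 4 samples of 4 groups. The submitters' processing notes list FastQC 0.10.1, Cufflinks 2.0.2, Cuffdiff and build mm9. No aligner or annotation is given in the sources used here. What the authors deposited is 1 table of 65535 rows in 3 comparisons, the last of which ends after 19067 of 23234 genes, laid out like Cuffdiff output. Per the file headers it holds 2 levels per row, a p-value with its q-value, the log2 ratio, the statistic behind it and a mark for significance. The deposited levels were read as FPKM because the labels name Cuffdiff. The deposited log2 ratio and test statistic were treated as a score, because ratios with a level of 0 hold a placeholder. The standard error of the authors' model is the quotient of both. Calls coincided with a q-value of at most 0.05.

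Library names were matched to samples by title; that of the knockdown library, which differs from its title, was matched by its number and target. Coordinates are those of the deposited table. No test was run, since each group has 1 library. Sizes are log2 ratios of FPKM + 1. Genes reaching 1 FPKM in any of the 3 libraries counted as measured. Depth is not given by FPKM, so no counting interval was computed. Relative depth came from the commonest ratio of levels below 0.03 FPKM.

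The 10 genes and 10 lists of 214 entries, 204 distinct, were chosen with earlier results of these data known; all entries matched a row. Named genes are the 10 genes, their closest relatives, called list genes and nearest patterns; other list genes were named after their values were seen. A called list gene and a nearest gene are not reported here. Promoter windows are RefSeq's (GRCm38.p6), matched by symbol for 8 of the 10 genes. The list median, the centring on abundant genes and the search for metal response cores were tested on simulated data. The other steps were not. Python 3.11.15, numpy 2.4.6, pandas 2.3.3 and matplotlib 3.10.9 were used.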

Additional observations from a re-analysis of the deposited data

How the results depend on the processing

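No paired analysis was possible because each group has 1 sample. Pseudocounts of 0.1 and 5 and 4 other scalings were tried (centring on abundant genes, equal upper quartile, TPM, equal sum without globins). The direction of 0 of the 10 genes changed in either comparison, over 60 values each. A pseudocount added to both levels cannot change a direction, so only the scalings could have done so. The scalings shifted the median of the measured genes by at most 0.09 for the knockdown and 0.06 for maturation. The lowest and highest log2 ratios were 0.49 and 2.48 for Sgk1 and -1.60 and -0.22 for Dusp1 in the knockdown, and 0.51 and 1.61 for Dusp1 and 1.55 and 1.65 for Mt2 with maturation. At a q under 0.01 the calls in the knockdown were 1 higher and 0 lower, and with maturation 1 higher and 0 lower. Asking also for a log2 ratio of 1 or more on the scale of FPKM + 1 left 0 called lower in the knockdown. Asking for 5 FPKM in a library of the comparison left 0 higher and 0 lower in the knockdown, 1 higher with maturation, and 3 in the knockdown against the maturing control, a setting chosen after seeing the data. Of 10 list medians, 5 changed sign under some setting in each comparison, 10 of 80 values for the knockdown and 8 of 80 for maturation, most of them near 0. The median of the further induced genes in the knockdown was -0.84 over members at 5 FPKM or more and 0 with no filter; the cause was not tested. Sgk1 and Dusp1 are low in FPKM, and the absolute depth behind them is unknown.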

Other observations

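Within 200 kb to either side of Mt2 and Mt1 the deposited table held 10 genes, these included, of which 7 reached 1 FPKM in a library. Apart from Mt2, the authors' deposited table called 1 of the 10, Bbs2, a gene of the primary cilium that stayed below 1 FPKM throughout. Bbs2 was called lower in the knockdown at 0.110 FPKM, against 0.477 FPKM in the proliferating control. Nup93, a nuclear pore gene on the far side of Mt1 from Mt2, was at 6.50 FPKM in the knockdown, 10.4 FPKM in the maturing control and 9.59 FPKM in the proliferating control, with no call. Nudt21, an mRNA 3′ end processing factor on the other side, was at 18.4 FPKM in the knockdown, 25.4 FPKM in the maturing control and 26.3 FPKM in the proliferating control, also with no call. The higher maturing level of Mt1, Mt2 and Mt4 was thus not seen in Nup93 and Nudt21 at a similar size.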
